A study of Homo sapiens with 36 samples.

Results

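TXNIP and its relatives ARRDC2, ARRDC3 and ARRDC4, which share the arrestin fold, were followed across the groups of a study on the HK-2 line, immortalized epithelium of the human kidney's proximal tubule. These are 4 of the 19775 genes represented on the arrays. They were selected on measured values, the large fall of TXNIP with time in cultures that received only vehicle, and the other genes were taken as its family members. The vehicle contrasts over time are therefore given below as a description without a test. Every culture was read on 1 Affymetrix array of biotin-labelled cRNA, and the values are deposited log2 expression levels.

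There were 36 arrays in 12 groups of 3, labelled as biological replicates. Of these, 18 belong to a compound labelled Aa, with vehicle, a low dose and a high dose for 24 h or 48 h. The other 18 belong to a compound labelled Ota, with vehicle, a low dose and a high dose for 24 h or 72 h. The labels do not spell out the compounds, the vehicle or the concentrations, so the doses cannot be matched between Aa and Ota. All 12 groups came from the same cell line and shared a medium with 5 mM glucose, 10 ng/ml EGF, 36 ng/ml hydrocortisone and 5 µg/ml insulin, also the controls. Seeding preceded the treatment by 24 h, and confluency was then about 90%. Whether medium was renewed during the treatment is not given in the sources used here. The p-values measure the spread between these cultures of 1 line. In such bulk samples, fewer cells of a kind and less RNA per cell cannot be told apart.

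The members belong to the alpha-arrestins, adaptor proteins that bring ubiquitin ligases of the NEDD4 family to membrane proteins so that these are internalised or degraded. TXNIP also binds reduced thioredoxin and holds back its activity, and both TXNIP and ARRDC4 lower glucose uptake by acting on the transporter GLUT1. Transcription of TXNIP and ARRDC4 is known to follow glucose through the paired factors MondoA (gene MLXIP) and MLX, which read phosphorylated sugars and bind carbohydrate response elements, and TXNIP is a familiar glucose-induced gene of the renal tubule. ARRDC3 is known for its part in the turnover of the beta2-adrenergic receptor and of integrin beta4. ARRDC2 is the least studied of the group.

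The promoters of TXNIP and ARRDC4 are shown because these genes rose or fell together in several comparisons below and are the family's known glucose-responsive genes. RefSeq promoter windows (build GRCh38.p14, 250 bases before to 50 after a start) matched 4 of 4 members, with 7 starts in all. TXNIP lies on chromosome 1, minus strand, and the bases before its start are chr1:145996580-145996829. ARRDC4 lies on chromosome 15, plus strand, and the bases before its start are chr15:97960453-97960702. Capitals mark a pair of E-box-like elements 5 bases apart, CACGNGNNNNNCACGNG, in TXNIP, and the E-box CACGTG in ARRDC4.
TXNIP: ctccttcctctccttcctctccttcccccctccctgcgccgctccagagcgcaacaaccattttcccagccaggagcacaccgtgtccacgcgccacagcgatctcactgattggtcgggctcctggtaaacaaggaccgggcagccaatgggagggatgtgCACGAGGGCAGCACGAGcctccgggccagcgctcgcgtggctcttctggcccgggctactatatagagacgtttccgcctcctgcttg
ARRDC4: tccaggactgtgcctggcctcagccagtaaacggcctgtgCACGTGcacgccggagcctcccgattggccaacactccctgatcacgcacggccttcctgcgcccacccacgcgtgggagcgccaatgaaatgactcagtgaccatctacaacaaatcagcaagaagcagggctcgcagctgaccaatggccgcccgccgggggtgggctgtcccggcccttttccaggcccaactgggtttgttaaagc
The paired element of TXNIP lay at -88 to -72 from the start, and 20 of 35116 windows (0.0570%) held such a pair on either strand. None of the windows of ARRDC2, ARRDC3 or ARRDC4 did. The E-box of ARRDC4, which also matches a single element of that pair, lay at -210 to -205, and 7.26% of windows held one. The forkhead core GTAAAC stood at -124 in TXNIP, at -224 in ARRDC4 and, on the opposite strand, at -28 in 1 of the ARRDC3 windows, and 7.20% of windows held it. A match of letters is a description and shows no binding.

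The state of the cells and arrays bears on what follows. Of 15 proximal tubule markers measured, 4 (SLC3A1, SLC4A4, PAX8 and CDH6) exceeded a log2 level of 4 on every control array, and 9, among them LRP2, CUBN, SLC34A1 and AQP1, lay at or under 4 on all 36 arrays. Such low levels cannot be ordered dependably. Of the markers of other cells, 3 of 11 for distal nephron exceeded 4 on every control array (CLDN16, SCNN1A and AQP3). So did 4 of 9 for fibroblasts (COL1A1, DCN, LUM and S100A4), 1 of 8 for endothelium (ESAM) and 0 of 8 for leukocytes. At or under 4 on all 36 arrays were 7 distal, 5 fibroblast, 7 endothelial and 6 leukocyte markers, among them PTPRC, PECAM1, CDH5 and PDGFRA. Of the 4 tubule markers tested, 0 rose (in limma) and 2, 4, 3 and 4 fell with the high doses (Aa at 24 h and 48 h, Ota at 24 h and 72 h). In the same order, 27.4%, 30.9%, 21.6% and 26.3% of all genes were called higher. The shares called lower were 24%, 35.1%, 42.4% and 37%. Distal markers gave 1 lower of 3 at both times with Aa, and of 4 with Ota 1 higher and 1 lower, then 1 and 2. Of 4 fibroblast markers 2 and 1 fell with Aa, and with Ota 2 rose and 1 fell, then 1 rose. The 1 endothelial marker tested, ESAM, fell with Ota at 72 h. Leukocyte markers tested gave 1 of 1 higher at both times with Aa and 2 of 2, then 1 of 2, higher with Ota. None of these exceeded 4 on every control array, and a gene needed only 3 arrays over 4 to be tested. Markers that are high only in treated cultures can pass that filter, so nothing is read from the leukocyte counts. The arrays of the high dose of Ota stood apart. Medians were taken over the 11405 genes above 4 on at least 3 of the 36 arrays. For these arrays the median level was 7.51 ± 0.17 (SD, n = 3) at 24 h and 7.83 ± 0.05 at 72 h. In the controls it was 8.18 ± 0.05 and 8.17 ± 0.02. RNA quality was read from the 3' minus 5' difference of the actin control sets. It was 1.88 ± 0.37 at 72 h with the high dose of Ota against 1.29 ± 0.15 in the controls. For Aa at 48 h the high dose gave 1.25 ± 0.30 against 0.86 ± 0.22. The part of these array differences in the results was not tested. Members were therefore also read after quantile normalization and after shifting each array to a common median ("shifted arrays").

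TXNIP in the vehicle cultures is the pattern that led to the choice. In the Aa controls its log2 level (probe set 201008_s_at) was 9.25, 9.88 and 9.61 at 24 h, and 5.54, 5.99 and 8.49 at 48 h. The groups did not overlap, but replicate 3 at 48 h lay between them, far above the other 2 cultures. The fitted difference was -2.91 ± 0.51 (SE; 7.51-fold lower at 48 h), and -3.82 without that culture. In the Ota controls TXNIP was at 10.27, 10.04 and 10.31 at 24 h and at 4.69, 4.13 and 3.73 at 72 h. All 3 late cultures lay close to the detection floor, and the fitted difference was -6.02 ± 0.44, or 65.0-fold. TXNIP had the lowest value of all 11029 genes in that contrast, and place 2 of 10972 in the Aa controls. ARRDC4 also stood lower in the late controls, at 3.75, 3.97 and 4.09 and then 2.68, 3.26 and 3.73 with Aa, where nearly all values were under the floor. With Ota it went from 5.22, 4.56 and 5.32 to 3.25, 3.24 and 3.74, at least 2.05-fold lower. ARRDC3 differed by -1.01 ± 0.20 in the Ota controls, without overlap, and by 0.36 ± 0.20 in the Aa controls, where the groups overlapped. ARRDC2 differed by 0.45 ± 0.31 and 0.10 ± 0.14.

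**Figure D1:**
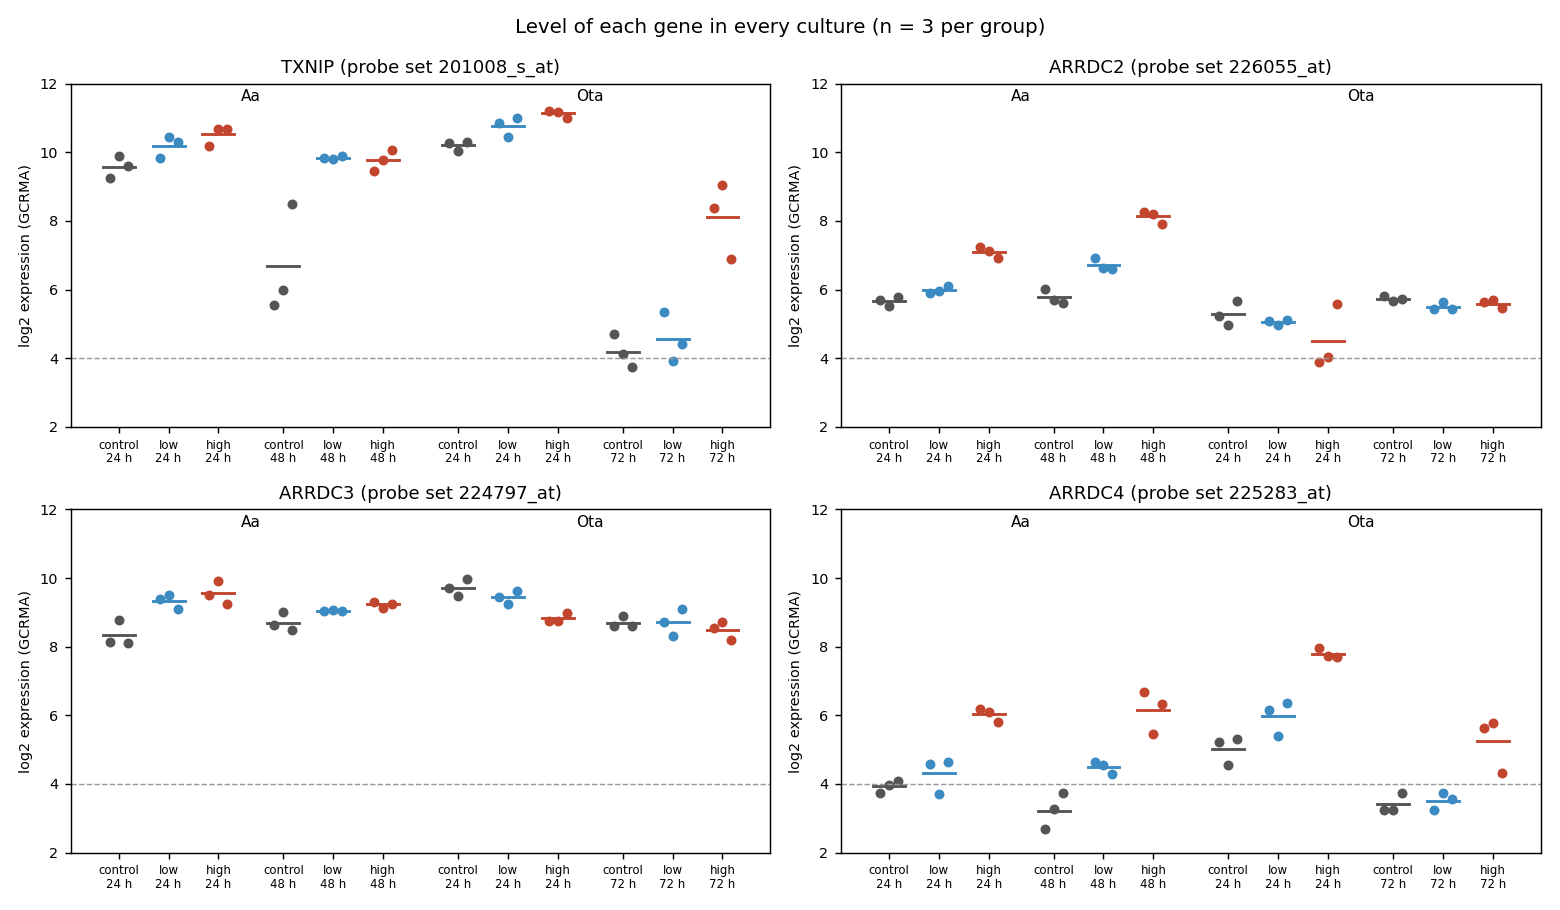
Log2 level (vertical axis) of each of the 4 genes in every culture, by compound, time and dose (horizontal axis); points are cultures, bars are means of 3 and the dashed line is the level of 4. TXNIP stayed between 9.47 and 10.06 in both dose groups of Aa at 48 h while its controls ranged from 5.54 to 8.49, and it was low at 72 h in the Ota controls and with the low dose but not with the high dose.

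In cultures treated with Aa, TXNIP was not called as changed over the same time in the fit to all groups of Aa. With the low dose it read 9.82, 10.44 and 10.30 at 24 h and 9.83, 9.80 and 9.88 at 48 h. The change of -0.35 ± 0.51 had a 95% interval from -1.44 to 0.75 (adjusted p = 0.771). With the high dose it read 10.18, 10.69 and 10.69 and then 9.47, 9.77 and 10.06, a change of -0.75 ± 0.51 (interval -1.85 to 0.34, adjusted p = 0.292). These groups did not overlap, and without replicate 3 of the 48 h controls the adjusted p was 0.0165. The standard errors and p-values here use a spread pooled over all groups of Aa. It includes the 48 h controls, which the choice of TXNIP used and whose SD was 1.59. The SDs at 24 h and 48 h were 0.32 and 0.04 with the low dose, and 0.29 and 0.30 with the high dose. The missing calls therefore do not show that TXNIP was steady in the treated cultures. The doses overlapped at 48 h, and high against low was -0.07 ± 0.51 (interval -1.17 to 1.02, adjusted p = 0.927). Against the 48 h controls TXNIP stood 3.09 ± 0.51 higher with the high dose (8.53-fold) and 3.16 ± 0.51 higher with the low dose (8.97-fold), and all 6 treated cultures lay above all 3 controls. These 2 values use the control cultures behind the choice of the gene and are given without a test. Without replicate 3 of those controls they were 4.002 and 4.07.

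In cultures treated with Ota, TXNIP fell with time at both doses. With the low dose it went from 10.84, 10.46 and 11.0025 at 24 h to 5.36, 3.93 and 4.40 at 72 h, and fell by 6.20 ± 0.44 on the log2 scale (73.6-fold, adjusted p = 1.81e-06). With the high dose it went from 11.21, 11.19 and 11.004 to 8.38, 9.06 and 6.88, and fell by 3.03 ± 0.44 (8.15-fold, adjusted p = 2.24e-05). Neither pair of groups overlapped. The difference between high and low dose grew from 0.37 ± 0.44 at 24 h (adjusted p = 0.495) to 3.54 ± 0.44 at 72 h (11.6-fold, adjusted p = 5.91e-06). The change in that difference, 3.18 ± 0.62, passed its own test (adjusted p = 0.000658). The 72 h cultures with the high dose lay above all controls and all low dose cultures, and spread more widely than those of most groups (SD 1.12). Against the 72 h controls, which the choice of TXNIP used, they stood 3.92 ± 0.44 higher (15.2-fold), given without a test. The low dose at 72 h stood 0.38 ± 0.44 above these controls, with overlapping cultures.

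Against the 24 h controls, which the choice of TXNIP also used, its values are likewise given without a test. With Aa it stood 0.94 ± 0.51 higher with the high dose, where all 3 cultures lay above the controls, and 0.61 ± 0.51 higher with the low dose, with overlap. With Ota it stood 0.93 ± 0.44 higher with the high dose and 0.56 ± 0.44 higher with the low dose, both without overlap. For the high dose of Ota the value was 0.96 after quantile normalization and 1.59 with shifted arrays, and probe set 201010_s_at of TXNIP gave -0.07, so the direction depends on the probe set.

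**Figure D2:**
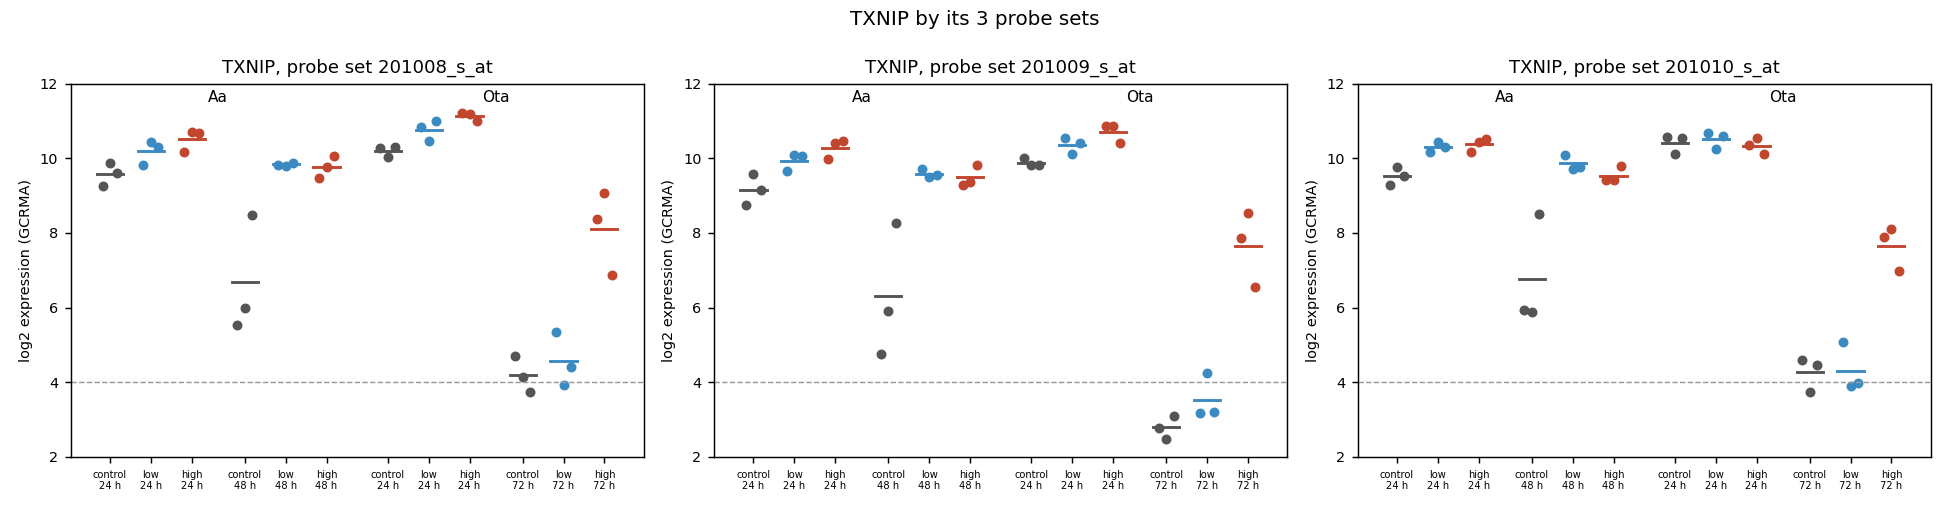
Log2 level of TXNIP (vertical axis) by each of its 3 probe sets in every culture, by compound, time and dose; points are cultures, bars are means of 3 and the dashed line is the level of 4. Later against earlier controls of Aa differ by -2.91, -2.85 and -2.75; for Ota the main probe set and 201010_s_at differ by -6.02 and -6.13, and 201009_s_at, at or under 4 in all 3 late controls, lies at least 59.2-fold lower.

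Over time in treated cultures the other probe sets of TXNIP had the same direction as the main one, while at 24 h 201010_s_at had the opposite sign for the high dose of Ota against control and against the low dose (-0.17). With 201009_s_at the low dose of Ota had 2 of 3 cultures at or under 4 at 72 h, and with values at or under 4 set to 4 (called floored) the change over time was -6.27 and that of the dose difference 3.21. With 201010_s_at, also at or under 4 in 2 of these cultures, they were -6.19 and 3.52. In the treated Aa cultures the changes from 24 h to 48 h were -0.35 and -0.44 with the low dose and -0.78 and -0.83 with the high dose. Ordered by mean, TXNIP was highest with the high dose of Ota at 24 h (11.13 ± 0.11) and lowest in the Ota controls at 72 h (4.18 ± 0.48). The groups in places 2 to 8, from 10.77 to 9.58, each overlapped their neighbour. A gap then separated them from the high dose of Ota at 72 h (8.11 ± 1.12) and the Aa controls at 48 h (6.67 ± 1.59), which overlapped each other.

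ARRDC4, the relative closest to TXNIP in its known glucose response, rose with the high dose of both compounds at both times. In Aa cultures at 24 h it read 6.17, 6.10 and 5.81 with the high dose, 4.57, 3.71 and 4.65 with the low dose and 3.75, 3.97 and 4.09 in the controls. The high dose lay above all others: it rose by 2.09 ± 0.31 (4.26-fold, floored 2.00, adjusted p = 5.72e-05). The low dose differed by 0.37 ± 0.31 (adjusted p = 0.436) with overlap. At 48 h the high dose read 6.69, 5.45 and 6.34 and the low dose 4.63, 4.54 and 4.30, against controls of 2.68, 3.26 and 3.73. The high dose rose at least 4.48-fold (adjusted p = 1.10e-06). The low dose was called too, at least 1.40-fold (adjusted p = 0.00552), but not with floored values (0.49, adjusted p = 0.124). High exceeded low by 1.72 ± 0.31 at 24 h (floored 1.62, adjusted p = 0.000919) and by 1.67 ± 0.31 at 48 h (adjusted p = 0.000529), comparisons that use no control.

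With Ota, ARRDC4 reached its highest level anywhere. At 24 h it read 7.96, 7.72 and 7.69 with the high dose, 6.15, 5.40 and 6.37 with the low dose and 5.22, 4.56 and 5.32 in the controls, so the 3 groups were stacked by dose. The high dose rose by 2.75 ± 0.34 (6.75-fold, adjusted p = 3.49e-06), and high exceeded low by 1.82 ± 0.34 (adjusted p = 0.000283). The low dose differed by 0.94 ± 0.34 and was not called (adjusted p = 0.0767). It was with shifted arrays (1.07, adjusted p = 0.0346) and without low dose replicate 2 (1.23, adjusted p = 0.0440) or replicate 3 of the high dose at 72 h (adjusted p = 0.0205). Each low dose culture at 24 h read above the control of the same number. Same-numbered cultures of this control and low dose group deviated together (r from 0.31 to 0.41). The fit took no account of that, and a fit pairing these groups alone was not run. At 72 h the high dose read 5.62, 5.77 and 4.33, the low dose 3.24, 3.73 and 3.57 and the controls 3.25, 3.24 and 3.74. The high dose was at least 2.36-fold above the controls (adjusted p = 0.000206) and at least 2.36-fold above the low dose (adjusted p = 0.000438), while the low dose and the controls were both under the floor. From 24 h to 72 h ARRDC4 fell by 2.55 ± 0.34 with the high dose (adjusted p = 9.68e-06) and at least 3.92-fold with the low dose (adjusted p = 0.000304). No change of the dose difference with time was called (-0.09 ± 0.48, interval -1.11 to 0.93, adjusted p = 0.891).

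ARRDC2 rose with Aa, most with the high dose at 48 h. Like the other dose comparisons at a given time, its values for both doses share the control arrays. With Aa at 24 h it read 7.24, 7.14 and 6.91 with the high dose, 5.90, 5.95 and 6.09 with the low dose and 5.71, 5.52 and 5.79 in the controls. The high dose rose by 1.42 ± 0.14 (2.68-fold, adjusted p = 1.22e-06), and the low dose differed by 0.31 ± 0.14 (adjusted p = 0.127) although no culture overlapped. At 48 h it read 8.27, 8.22 and 7.92 with the high dose, 6.92, 6.63 and 6.60 with the low dose and 6.00, 5.69 and 5.62 in the controls. Both doses were then above the controls, by 2.37 ± 0.14 (5.15-fold, adjusted p = 4.90e-09) and 0.95 ± 0.14 (adjusted p = 0.000119). High exceeded low at both times, by 1.11 ± 0.14 (adjusted p = 4.57e-05) and 1.42 ± 0.14 (adjusted p = 2.77e-06). In the treated cultures ARRDC2 rose further from 24 h to 48 h, by 1.04 ± 0.14 with the high dose (adjusted p = 0.000105) and 0.74 ± 0.14 with the low dose (adjusted p = 0.00770). The latter call was lost in a fit to all 36 arrays (adjusted p = 0.0860) and without low dose replicate 1 at 48 h (0.63, adjusted p = 0.0528). The 2 highest groups of ARRDC2 were the high doses of Aa at 48 h and at 24 h, followed by the low dose at 48 h.

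With Ota, ARRDC2 read 3.89, 4.05 and 5.59 with the high dose at 24 h against 5.22, 4.97 and 5.67 in the controls. Replicate 3 lay among the controls and the other 2 cultures below them. The difference of -0.78 ± 0.31 was called (adjusted p = 0.0395) but was -0.15 after quantile normalization and -0.11 with shifted arrays (adjusted p = 0.710 and 0.729). It was also lost with no filter (adjusted p = 0.0630) and without control replicate 1 (-0.81, adjusted p = 0.0671) or 3 (-0.59, 0.157) or high dose replicate 1 (-0.47, 0.209) or 2 (-0.55, 0.161), and it was -1.32 without replicate 3. High against low at 24 h was -0.55 ± 0.31 (adjusted p = 0.140), and -1.09 without that replicate (adjusted p = 5.45e-05). At 72 h it read 5.63, 5.69 and 5.46 with the high dose and 5.80, 5.68 and 5.73 in the controls, a difference of -0.14 ± 0.31 (interval -0.81 to 0.52, adjusted p = 0.706) that turned to 0.46 and 0.20 under the other scalings. The low dose differed by -0.22 ± 0.31 and -0.23 ± 0.31. From 24 h to 72 h the high dose rose by 1.08 ± 0.31 (adjusted p = 0.00674), with overlapping cultures because of the same replicate 3.

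ARRDC3 was raised early by Aa. At 24 h it read 9.51, 9.92 and 9.24 with the high dose, 9.40, 9.49 and 9.08 with the low dose and 8.13, 8.77 and 8.11 in the controls. Both doses rose, by 1.21 ± 0.20 (2.32-fold, adjusted p = 0.000120) and 0.99 ± 0.20 (1.98-fold, adjusted p = 0.00205), and they overlapped each other (0.23 ± 0.20, interval -0.20 to 0.65, adjusted p = 0.443). It was the only member called with the low dose at 24 h. At 48 h the high dose read 9.31, 9.12 and 9.26, the low dose 9.03, 9.06 and 9.05 and the controls 8.63, 9.00 and 8.47. The high dose differed by 0.53 ± 0.20 (adjusted p = 0.0290) and the low dose by 0.34 ± 0.20 (adjusted p = 0.189). The former call was lost with no filter (adjusted p = 0.0554) and without control replicate 1 (0.49, adjusted p = 0.0760) or 3 (0.41, 0.115) or high dose replicate 1 (0.49, 0.0762) or 3 (0.51, 0.0663). In treated cultures over time the changes were -0.32 ± 0.20 and -0.28 ± 0.20 (adjusted p = 0.240 and 0.460).

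With Ota the direction of ARRDC3 against its own controls was opposite. The 24 h controls of the compounds differed from each other. ARRDC3 was highest of the 12 groups in those of Ota (9.71 ± 0.25, SD) and lowest in those of Aa (8.34 ± 0.38). With the low dose at 24 h the means lay close together (9.44 with Ota and 9.33 with Aa). At 24 h it read 8.74, 8.76 and 8.99 with the high dose, 9.44, 9.26 and 9.61 with the low dose and 9.70, 9.47 and 9.97 in the controls. The high dose fell by 0.88 ± 0.20 on the log2 scale (adjusted p = 0.00104) without overlap. The fall was 0.53 after quantile normalization (-0.53, adjusted p = 0.0237), and with shifted arrays the value was -0.22 and no longer called (adjusted p = 0.318). High against low was -0.61 ± 0.20 (adjusted p = 0.0155). It was not called under quantile normalization (-0.29, adjusted p = 0.195), with shifted arrays (-0.07, adjusted p = 0.746) or without low dose replicate 3 (-0.52, adjusted p = 0.0650). At 72 h it read 8.56, 8.73 and 8.19 with the high dose, 8.72, 8.32 and 9.09 with the low dose and 8.61, 8.88 and 8.62 in the controls, all overlapping. The differences from control were -0.21 ± 0.20 and 0.01 ± 0.20. From 24 h to 72 h the low dose fell by 0.73 ± 0.20 (adjusted p = 0.0218), a call lost without low dose replicate 1 (-0.72, adjusted p = 0.0611) or 3 (-0.64, 0.0763) at 24 h or 1 (-0.73, 0.0591) or 2 (-0.53, 0.115) at 72 h. The high dose changed by -0.34 ± 0.20 (adjusted p = 0.145), and was called under quantile normalization (-0.49, adjusted p = 0.0353) and with shifted arrays (-0.66, adjusted p = 0.00738).

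**Figure D3:**
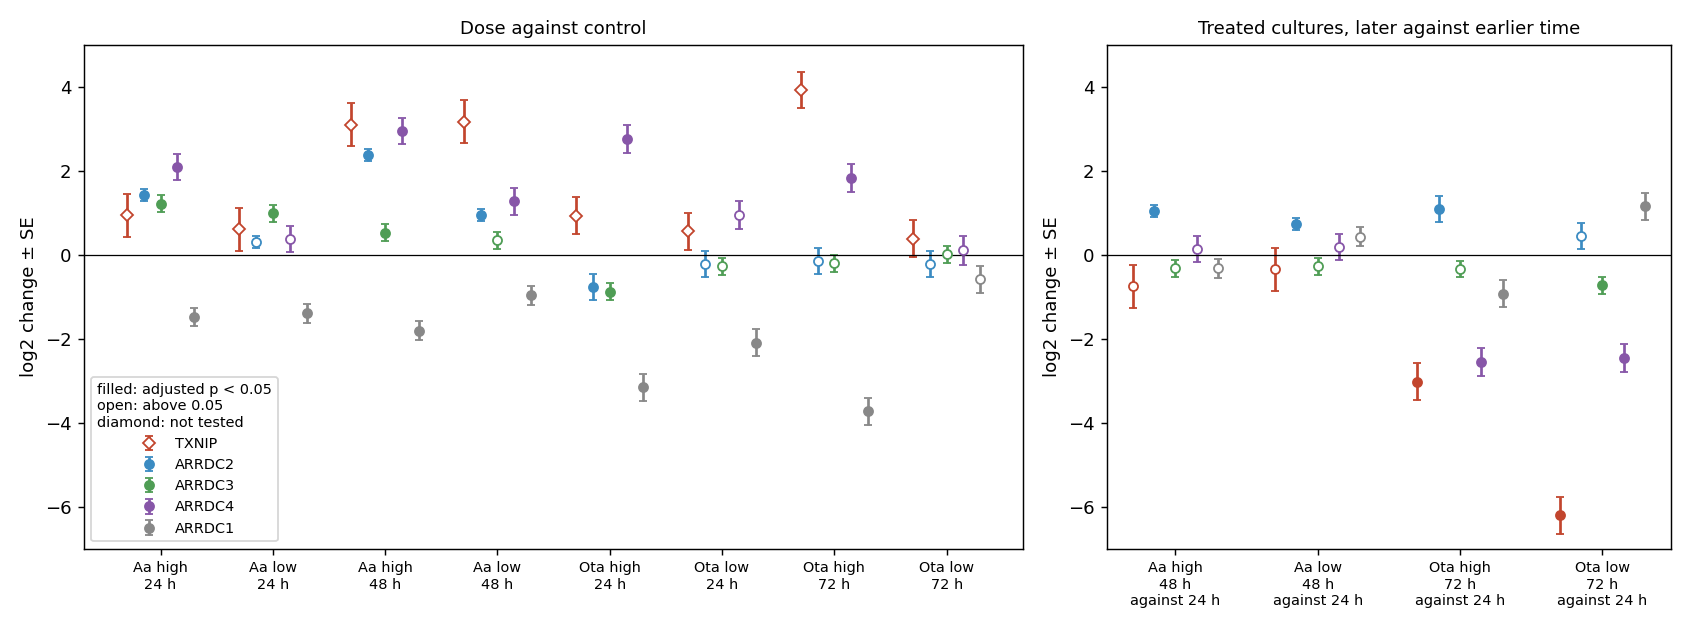
Log2 change ± SE (vertical axis) of the 4 genes and of ARRDC1 for each dose against its control (left) and for treated cultures at the later against the earlier time (right); filled circles passed an adjusted p of 0.05, open circles did not, and diamonds are TXNIP values against the controls behind its choice, given without a test. Points are unfloored; ARRDC4 is above 0 in all 4 high dose comparisons (floored 1.24 to 2.75), ARRDC1 is below 0 in all 8 dose comparisons, and TXNIP changes by -6.20 with the low dose of Ota.

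Read against all genes tested, these counts vary in weight, since the high doses changed a large share of all genes. With Aa at 24 h ARRDC2, ARRDC3 and ARRDC4 were called higher with the high dose, where 51.3% of genes were called (27.4% higher, 24% lower), and ARRDC3 with the low dose, where 25.1% were. High against low gave 2 of 4 members and 27.1% of genes. At 48 h ARRDC2, ARRDC3 and ARRDC4 were called with the high dose, beside 66% of genes (30.9% higher, 35.1% lower), and ARRDC2 and ARRDC4 with the low dose, beside 37.9%. High against low gave 2 of 4 and 46.5%. From 24 h to 48 h, 1 of 4 members was called with the high dose (30.4% of genes) and 1 of 4 with the low dose (6.09%). The change of the dose difference gave 0 of 4 members (also at an unadjusted p of 0.05) and 3.73% of genes in limma. The low dose count over time, 668 genes, was 171 without low dose replicate 1 and 420 without replicate 3 at 48 h, and 417 and 271 without replicate 2 and 3 at 24 h. The count for the dose difference, 409, was 243 and 189 without high dose replicate 1 and 2 at 24 h, 244 without replicate 3 at 48 h, and 160 and 201 without low dose replicate 3 at 24 h and replicate 1 at 48 h. The median change of the 4 members was 1.32 with the high dose at 24 h and 0.49 with the low dose, where the medians of all genes were 0.03 and -0.02. Same-numbered Aa cultures were paired, and with the replicate number as a block the share of genes called rose to 39.4% for the low dose at 24 h, 41.5% for high against low at 24 h, 45.7% and 18.1% for the time changes of the high and low dose, and 16.6% for the change of the dose difference. No member's call changed with that block.

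With Ota at 24 h the high dose gave 1 member higher and 2 lower, where 64% of genes were called (21.6% higher, 42.4% lower), the low dose none of ARRDC2, ARRDC3 and ARRDC4 in limma beside 14.7%, and high against low 2 of 4 beside 58.1%. At 24 h the unadjusted limma p of the low dose was under 0.05 for ARRDC4 alone among these 3. At 72 h ARRDC4 was called with the high dose, beside 63.4% of genes (26.3% higher, 37% lower), none of these 3 with the low dose in limma (17.1%; also 0 at an unadjusted p of 0.05), and TXNIP and ARRDC4 in high against low (58.4%). From 24 h to 72 h, 3 of 4 members were called with the high dose (63.4% of genes) and 3 of 4 with the low dose (15.5%). The change of the dose difference gave TXNIP alone and 48.5% of genes. Single cultures moved the low dose counts. At 24 h 1619 genes became 942 without low dose replicate 2, and at 72 h 1883 became 1170 without control replicate 3 and 1184 without low dose replicate 1. Over time 1713 became 1076 and 770 without low dose replicate 1 and 2 at 24 h, and 1069 and 953 without replicate 1 and 2 at 72 h. The median gene itself was shifted by -0.26 with the high dose at 24 h, by -0.12 at 72 h and by 0.20 between these times. Of the genes called with the high dose, 33.7% were higher at 24 h as deposited, against 55.6% after quantile normalization and 64.8% with shifted arrays. At 72 h these shares were 41.5%, 54.6% and 59.1%. Relative to the median gene, in Ota cultures with the high dose, ARRDC2 and ARRDC3 lay closer to 0 at 24 h, and ARRDC4 and TXNIP farther above it.

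**Figure D4:**
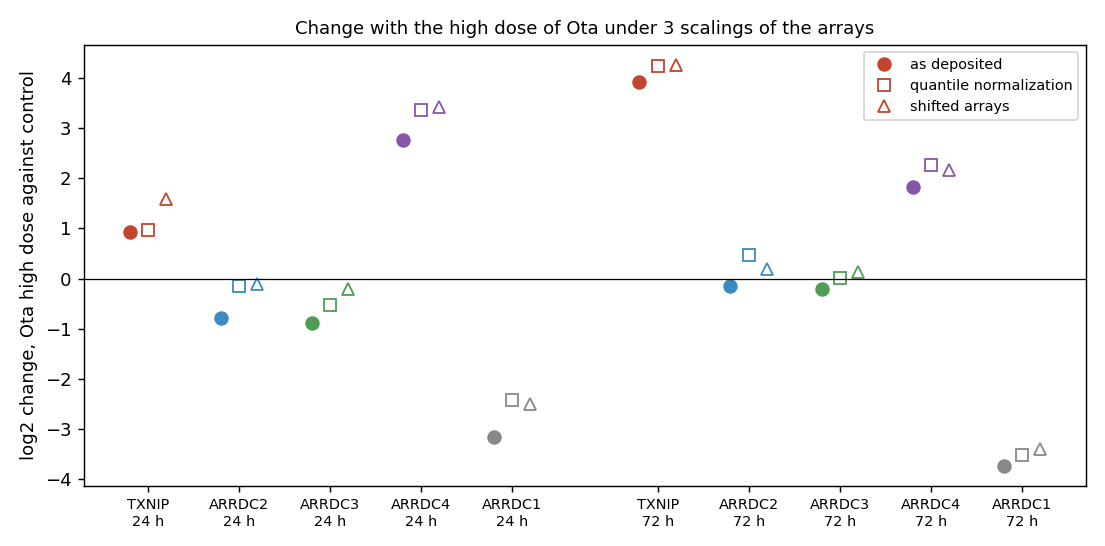
Log2 change with the high dose of Ota against control (vertical axis) for the 4 genes and ARRDC1 at 24 h and 72 h, by marker shape for values as deposited, after quantile normalization and with shifted arrays. ARRDC4 kept its rise (2.75, 3.36 and 3.42 at 24 h) and ARRDC1 its fall, while ARRDC2 at 24 h went from -0.78 to -0.15 and -0.11.

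ARRDC1, a further alpha-arrestin known for the budding of vesicles from the plasma membrane, was lower with the high dose in all 4 comparisons. Its controls lay between 7.27 and 8.10 in all 4 control groups. With the high dose it read 6.62, 6.03 and 6.21 (Aa, 24 h), 6.28, 5.78 and 5.83 (Aa, 48 h), 4.87, 5.27 and 3.65 (Ota, 24 h) and 3.20, 3.47 and 4.33 (Ota, 72 h). It fell in each of these, with changes of -1.48 ± 0.22, -1.81 ± 0.22, -3.16 ± 0.32 (floored -3.04) and -3.73 ± 0.32 (floored -3.29), with adjusted p from 9.03e-08 to 5.24e-05. With the low doses the changes were -1.40 ± 0.22 and -0.97 ± 0.22 with Aa at 24 h and 48 h (adjusted p = 0.000346 and 0.00309) and -2.10 ± 0.32 with Ota at 24 h (adjusted p = 0.000392), and the change with Ota at 72 h was not called (-0.58 ± 0.32, adjusted p = 0.251). With the low dose of Ota it read 5.71, 5.52 and 5.75 at 24 h and 6.81, 6.86 and 6.77 at 72 h, a rise of 1.15 ± 0.32 (adjusted p = 0.0256), while the high dose changed by -0.93 ± 0.32 (floored -0.61, adjusted p = 0.0200). The rise was not called without replicate 1 or 2 of the low dose at 24 h or any 1 of its 3 cultures at 72 h (adjusted p from 0.0598 to 0.0979), and the fall was not called without replicate 1 or 2 of the high dose at either time (0.0637 to 0.116). Under quantile normalization and with shifted arrays the rise was 0.90 and 1.01 and not called. The change of the dose difference was -2.08 ± 0.46 (adjusted p = 0.00163). In the paired Aa fit the corresponding change was -0.75 (adjusted p = 0.00579), against an adjusted p of 0.193 without the block. ARRDC5 has no probe set in the annotation used.

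Likeness over the 12 group means was described among 11405 genes. The 5 genes most like TXNIP were YBX1 (r = 0.906), EGLN3 (0.906), MYRF (0.903), LSM3 (0.903) and DPYSL3 (0.900). YBX1 encodes an RNA-binding cold shock protein, EGLN3 an oxygen-sensing prolyl hydroxylase and LSM3 a splicing factor subunit. YBX1 moved over a narrow range, from 14.16 in the Ota controls at 72 h to 14.89 with the high dose of Ota at 24 h, so an alike order does not mean an alike size. ARRDC2 was most like WDR74 (0.973), PINK1 (0.970), a mitochondrial kinase, and BAG1 (0.969), a co-chaperone. ARRDC3 was less closely matched, by CAMKK2 (0.823), a kinase that activates AMPK, DNAJC13 (0.746) and NFKBIZ (0.736). After quantile normalization these r were 0.640, 0.698 and 0.684, so their order depends on the scaling. Among the genes listed for the other members the lowest such r was 0.825 (MYRF). ARRDC4 was most like CCAR1 (0.935), GPRASP1 (0.916) and SH3BP5-AS1 (0.893). Among the members, TXNIP and ARRDC4 were most alike (0.72 over 12 groups, 0.68 within Aa and 0.89 within Ota, 6 groups each). ARRDC2 and ARRDC4 had 0.91 within Aa and -0.92 within Ota. These points share controls, normalization and the array-wide shift of the Ota high dose, and are given without a test.

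The glucose-sensing factors that act on TXNIP and ARRDC4 were read from a list of MondoA, ChREBP and the MAX network, with 9 tested genes. Of all genes, 27.4% were called higher and 24% lower with Aa at 24 h, and 30.9% and 35.1% at 48 h. With Ota the shares were 21.6% and 42.4% at 24 h, and 26.3% and 37% at 72 h. For the high dose of Aa 2 rose and 3 fell at 24 h (median change 0.01, all genes 0.03), and 2 rose and 6 fell at 48 h (-1.04, all genes -0.04). For the high dose of Ota 1 rose and 6 fell at 24 h (-0.68, all genes -0.26), and 2 rose and 5 fell at 72 h (-0.76, all genes -0.12). The 24 h counts with Ota were 2 and 4 after quantile normalization and 3 and 2 with shifted arrays. MLXIP, which encodes MondoA, rose with Aa by 1.16 ± 0.31 and 1.92 ± 0.31 (adjusted p = 0.00577 and 6.29e-05) and with Ota at 72 h by 1.17 ± 0.18 (adjusted p = 3.84e-05). At 24 h with Ota it was -0.14 ± 0.18 as deposited but 0.79 after quantile normalization and 0.53 with shifted arrays, both called. Its partner MLX fell in all 4, with changes of -0.46 ± 0.16, -1.28 ± 0.16, -3.81 ± 0.45 (floored -3.64) and -1.69 ± 0.45. The first of these calls was lost without control replicate 2 (-0.33, adjusted p = 0.122) or high dose replicate 1 (-0.43, 0.0675) or 3 (-0.39, 0.0847). MXD1, which encodes a MAX-binding repressor, rose at 24 h by 2.19 ± 0.22 with Aa and 2.31 ± 0.21 with Ota. MYC was the largest fall with Aa at 24 h (-0.77 ± 0.14), and MXI1 at 48 h (-1.45 ± 0.17) and with Ota at 72 h (-2.75 ± 0.25).

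The partners of the TXNIP protein, the thioredoxin and peroxiredoxin system, were called in both directions. Beside them, 27.4% and 30.9% of all genes were called higher with Aa at 24 h and 48 h, and 24% and 35.1% lower. With Ota at 24 h and 72 h 21.6% and 26.3% were higher, and 42.4% and 37% lower. Of 16 genes tested with Aa, 4 rose and 1 fell at 24 h (median 0.07) and 7 rose and 3 fell at 48 h (0.16). Of 17 with Ota, 7 rose and 3 fell at 24 h (0.18) and 8 rose and 3 fell at 72 h (0.18); shifted arrays gave 14 and 1 at 24 h. TXN, thioredoxin itself, rose by 0.26 ± 0.10 and 0.57 ± 0.10 with Aa and by 0.58 ± 0.11 and 1.19 ± 0.11 with Ota, the first of these not called with shifted arrays (0.19, adjusted p = 0.181), nor without any of 10 single cultures (0.19 without control replicate 1 at 24 h and 0.21 without high dose replicate 2, the lowest values). TXNRD1, thioredoxin reductase, rose by 1.09 ± 0.11 and 0.36 ± 0.11 with Aa, and with Ota was -0.55 ± 0.22 at 24 h (0.11 with shifted arrays) and 0.57 ± 0.22 at 72 h. The call at 48 h with Aa was lost without high dose replicate 2 (0.30). The 24 h call with Ota was lost without any 1 of the 3 controls or high dose replicate 1 or 2 (-0.31 without the latter). The 72 h call was lost without control replicate 1 or 2 (0.42 without the latter) or high dose replicate 1 or 3 (0.43 without the latter). The largest falls were GLRX with Aa (-0.80 ± 0.13 and -1.24 ± 0.13), and GLRX2 (-1.88 ± 0.22) and TXN2 (-2.04 ± 0.17) with Ota. The largest rises besides TXNRD1 were TXNRD2 with Aa at 48 h (1.45 ± 0.28), GSR with Ota at 24 h (0.86 ± 0.13) and GLRX3 at 72 h (1.44 ± 0.17, floored 0.61). Much of the GLRX3 change lay under the level of 4, and a gene high only in treated cultures can pass the filter, so nothing is read from it.

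Genes for glucose uptake and its first steps moved both ways. Across all genes tested, 27.4% were called higher and 24% lower with Aa at 24 h (median 0.03). At 48 h these shares were 30.9% and 35.1% (-0.04). With Ota they were 21.6% and 42.4% at 24 h (-0.26), and 26.3% and 37% at 72 h (-0.12). With Aa 3 rose and 5 fell of 15 at either time (medians -0.16 and 0.00), and with Ota 2 rose and 6 fell of 17 at 24 h (-0.52; 5 and 4 after quantile normalization, 6 and 3 with shifted arrays) and 6 rose and 6 fell at 72 h (-0.09). SLC2A1, which encodes GLUT1, the transporter that TXNIP and ARRDC4 are known to restrain, was 0.41 ± 0.18 with Aa at 24 h (adjusted p = 0.0783) and rose by 0.85 ± 0.18 at 48 h and by 0.80 ± 0.19 and 1.10 ± 0.19 with Ota at 24 h and 72 h. PFKFB4, which sets the level of a glycolysis activator, was the largest rise with Aa (2.23 ± 0.29 and 2.32 ± 0.29) and with Ota at 72 h (1.12 ± 0.32), and its paralog PFKFB2 the largest fall with Ota (-3.42 ± 0.32, floored -2.82, and -3.48 ± 0.32, floored -3.35). SLC2A13, a myo-inositol transporter, fell most with Aa (-3.75 ± 0.50, floored -2.98, and -4.58 ± 0.50, floored -3.59), and SLC2A9, a urate transporter, rose most with Ota at 24 h (2.51 ± 0.16, floored 0.87). Much of the SLC2A9 change thus lay under the level of 4. A gene high only in treated cultures can pass the filter for testing, so nothing is read from this call. AMPK subunits, 6 tested, gave 2 higher and 1 lower, then 2 and 3, with Aa (medians 0.14 and -0.38), and 1 and 3, then 3 and 2, with Ota (-0.66 and 0.24). PRKAB2 was the largest rise with Aa at 24 h (1.77 ± 0.19) and the largest fall with Ota at 24 h (-2.13 ± 0.13, floored -1.77). The other largest rises were PRKAB1 with Aa at 48 h (1.54 ± 0.16), PRKAA2 with Ota at 24 h (0.86 ± 0.16) and PRKAG2 at 72 h (2.30 ± 0.43), and the other largest falls PRKAG2 (-1.17 ± 0.19) and PRKAA2 (-1.23 ± 0.17) with Aa and PRKAG1 with Ota at 72 h (-2.05 ± 0.17).

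Among the NEDD4 family ligases that alpha-arrestins recruit, 7 tested, 0 rose and 2 fell with Aa at 24 h (median -0.35) and 1 rose and 5 fell at 48 h (-1.27), in limma. With Ota 3 rose and 2 fell at 24 h (-0.13), and 2 rose and 1 fell at 72 h (0.23). Of all genes, 27.4% and 30.9% were called higher with Aa at 24 h and 48 h, and 24% and 35.1% lower (medians 0.03 and -0.04). With Ota at 24 h and 72 h the shares were 21.6% and 26.3% higher, and 42.4% and 37% lower (medians -0.26 and -0.12). NEDD4L, a ligase of epithelial sodium channels, fell by 2.48 ± 0.20 with Aa at 48 h and rose by 3.57 ± 0.17 with Ota at 24 h. WWP2 fell most with Aa at 24 h (-0.69 ± 0.17) and with Ota at both times (-4.06 ± 0.28, floored -3.81, and -1.52 ± 0.28), WWP1 rose with Ota at 72 h (1.69 ± 0.13) and SMURF2 with Aa at 48 h (0.33 ± 0.11), the last not called without control replicate 1 or 3 (0.31 and 0.30). Of the membrane cargo named for alpha-arrestins, 0 rose and 2 fell of 5 with Aa at 24 h and 1 rose and 3 fell at 48 h (medians -0.57 and -1.15), and of 6 with Ota 1 rose and 3 fell, then 2 rose and 3 fell (-0.22 and 0.01). After quantile normalization the counts with Ota were 2 and 2, then 3 and 2, and with shifted arrays 3 and 1, then 3 and 2. SLC2A1 belongs to this list too. SLC11A2, an iron transporter, fell most in all 4 comparisons, with changes of -1.42 ± 0.26, -2.35 ± 0.26, -4.28 ± 0.25 (floored -3.92) and -2.98 ± 0.25, and ADRB1 rose with Ota at 72 h (1.85 ± 0.25, floored 0.67). Much of the ADRB1 change lay under the level of 4, and a gene high only in treated cultures can pass the filter. Nothing is read from that call. The beta-arrestins and VPS26 genes, which share the fold, gave 1 higher and 0 lower, then 1 and 3, of 5 with Aa (medians -0.09 and -0.35), and 0 and 2, then 2 and 2, with Ota (-0.06 and 0.18). The counts with Ota at 24 h turned to 2 and 1 after quantile normalization and 3 and 1 with shifted arrays. ARRB1 rose with Aa by 1.01 ± 0.23 and 1.02 ± 0.23 and with Ota at 72 h by 1.82 ± 0.16, while VPS26C fell with Aa at 48 h (-1.25 ± 0.21) and RGP1 with Ota (-2.07 ± 0.20 and -1.36 ± 0.20).

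Lists of genes that respond to signals also known to act on TXNIP or the ARRDC genes showed no single direction. Beside them, 27.4% and 30.9% of all genes were called higher with Aa at 24 h and 48 h, and 24% and 35.1% lower. With Ota at 24 h and 72 h 21.6% and 26.3% were higher, and 42.4% and 37% lower. Of 12 glucocorticoid-responsive genes, 6 rose and 4 fell with Aa at 24 h and 5 rose and 5 fell at 48 h (medians 0.50 and -0.11), and of 13 with Ota 4 rose and 5 fell at either time (-0.26 and 0.25). DDIT4, an mTOR inhibitor, fell most in all 4 comparisons, with changes of -1.48 ± 0.26, -2.46 ± 0.26, -4.13 ± 0.14 and -3.76 ± 0.14. ANGPTL4, a lipase inhibitor, rose most in 3 of them (2.84 ± 0.43, floored 2.41; 5.18 ± 0.43, floored 4.39; and 3.07 ± 0.24, floored 2.05, with Ota at 72 h), and CRISPLD2 in the fourth (2.17 ± 0.28). Of 16 FOXO-responsive genes, 5 rose and 4 fell, then 2 rose and 10 fell with Aa (-0.01 and -0.69), and 3 rose and 5 fell, then 3 rose and 8 fell with Ota (-0.07 and -0.52); at 24 h with Ota shifted arrays gave 10 and 5. GADD45A, a growth arrest gene, led the rises with Aa (1.81 ± 0.20 and 3.05 ± 0.20), where IRS2 (-1.66 ± 0.19) and KLHL24 (-2.75 ± 0.33) led the falls. With Ota these were BCL6 (0.93 ± 0.13) and SOD2 (1.47 ± 0.27), and TRIB1 (-2.63 ± 0.15) and CITED2 (-1.75 ± 0.23). Of 4 inflammasome genes, a pathway TXNIP is known to feed, 0 rose, in limma and with every scaling tried, and 2, 3, 4 and 2 fell across the 4 comparisons (medians -0.36, -1.29, -0.91 and -0.78). The falls were 2, 3, 3 and 1 after quantile normalization and 3, 3, 1 and 2 with shifted arrays, and of all genes 24%, 35.1%, 42.4% and 37% were called lower as deposited. PYCARD, the inflammasome adaptor, fell most each time, with changes of -1.97 ± 0.33, -3.11 ± 0.33, -2.20 ± 0.32 and -3.19 ± 0.32 (floored -2.81).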

How the data were processed

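RNA of 36 HK-2 cultures was read on 1 array each. The deposited values are log2 expression levels normalized with GCRMA, per the submitters' processing notes. The version of GCRMA is not given in the sources used here, nor is whether Aa and Ota arrays went through it as 1 set. They ran from 0.844 to 16.09. The number of arrays limits the precision. Of 54675 probe sets, 41091 carried 1 gene symbol, 1801 several and 11721 none, besides 62 control sets, and 41037 matched RefSeq; sets with several or no symbol were left out. A gene was represented by 1 probe set, and the others of TXNIP were an alternative. Genes over a log2 level of 4 on at least 3 arrays of a compound were tested (10972 for Aa, 11029 for Ota; all 4 members passed). A linear model of the 6 groups of each compound was fitted with limma 3.58.1 in R 4.3.3, with two-sided p-values adjusted by Benjamini-Hochberg over all genes tested and called under 0.05. Fits were tested on simulated data with noise drawn independently for each array. That simulation held no pairing by replicate number, so it could not show how the unpaired fit behaves with paired cultures. Python 3.11.15 with matplotlib 3.10.9 made the figures.

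The text names every member, ARRDC1, a few fixed genes (TXN, TXNRD1, SLC2A1, MLXIP and MLX), the largest called rise and fall of each list, and the genes most alike. Members and lists were chosen with earlier results of these data known. Same-numbered Aa cultures of different groups deviated together (45 of 45 pairs of cultures with r over 0.1, from 0.189 to 0.595), so the numbers pair them. In Ota 24 of 45 did, and all 3 pairs did in 3 of 15 pairs of groups, among them the 24 h controls with either dose at 24 h. Alternatives were quantile normalization, shifted arrays, a floor of 4, other filters, other probe sets, limma with trend and robust settings, 1 fit to all arrays, the replicate block and leaving out each culture. The fits covered TXNIP against the controls too. Its p-values there are not given, because values of those controls chose it. No 2 arrays held identical values.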

Additional observations from a re-analysis of the deposited data

Results flagged for a closer look

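The difference in TXNIP between the high and the low dose of Ota changed from 24 h to 72 h by 3.18 ± 0.62 (adjusted p = 0.000658, limma interaction term), because the low dose fell further than the high dose. For ARRDC1 the same term was -2.08 ± 0.46 (adjusted p = 0.00163).

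At 24 h every Aa culture lay on the opposite side of its control mean from every Ota culture for 3 values, and none of these differences between the compounds was tested, since their doses cannot be matched. The share of all genes with such a split is not given here, so the count itself carries no weight. The change of ARRDC3 with the high dose was 2.10 higher with Aa than with Ota, and with the low dose 1.26 higher. The gap between the controls enters these values. ARRDC3 was at 8.34 in the 24 h controls of Aa and 9.71 in those of Ota, against 9.33 and 9.44 with the low dose. For ARRDC2 with the low dose the change was 0.53 higher with Aa, and was called in neither compound (limma adjusted p = 0.127 with Aa and 0.731 with Ota). ARRDC3 with the low dose of Ota was not called either (adjusted p = 0.416). With the high dose of Ota it was -0.22 and not called with shifted arrays.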

How the results depend on the processing

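Among the 4 members, 648 of the values under other settings and 1400 of those with 1 culture left out kept direction and call. These counts include TXNIP against the controls, by the call of the fit. They also include the controls over time, where a value within the spread of the groups counted as kept. The exceptions follow, and their cause was not tested where the setting's construction does not show it. With no filter, ARRDC3 under the high dose of Aa at 48 h (0.53) and ARRDC2 with the high dose of Ota at 24 h (-0.78) were not called. With a floor of 4, ARRDC4 with the low dose of Aa at 48 h was 0.49 and not called, its Aa dose difference over time 0.051, and its later against earlier controls -0.030 (Aa) and -1.03 (Ota). In 1 fit to all arrays ARRDC2 with the low dose of Aa over time (0.74) was not called. Under quantile normalization and shifted arrays, in that order, the Aa dose difference over time was 0.031 and 0.085 for ARRDC3 and 0.16 and 0.084 for ARRDC4. With the high dose of Ota at 24 h TXNIP was 0.96 and 1.59 (given without a test), ARRDC2 -0.15 and -0.11 (not called) and ARRDC3 -0.22 with shifted arrays (not called). High against low at 24 h was -0.29 and -0.074 for ARRDC3 (not called), and ARRDC4 with the low dose of Ota at 24 h was 1.07 with shifted arrays (called). At 72 h ARRDC2 with the high dose was 0.46 and 0.20, ARRDC3 0.017 and 0.13 with the high dose, -0.016 and -0.013 with the low dose and 0.033 and 0.14 for high against low. ARRDC3 with the high dose over time was -0.49 and -0.66 (called). Probe set 201010_s_at of TXNIP gave -0.070 for the high dose of Ota at 24 h and -0.17 for high against low, and 201009_s_at gave -7.10 in the Ota controls (floored -5.89).

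Leaving out 1 culture gave these ranges where a call or direction changed. The ranges of TXNIP against controls are given without a test, and with the high doses at 24 h they kept their direction. For Aa they were 0.78 to 1.11 (TXNIP, high dose at 24 h), -0.22 to 0.076 (TXNIP, high against low at 48 h), -0.92 to -0.61 (TXNIP, high dose over time), 0.63 to 0.79 (ARRDC2, low dose over time), 0.41 to 0.68 (ARRDC3, high dose at 48 h), -0.13 to 0.49 and -0.12 to 0.35 (ARRDC4, high and low dose over time), -0.20 to 0.14 and -0.31 to 0.31 (ARRDC3 and ARRDC4, dose difference over time) and, for ARRDC1, high against low at 24 h, -0.25 to 0.12 (above 0 without low dose replicate 1 or high dose replicate 2, the latter 0.043). For Ota they were 0.84 to 0.99 (TXNIP, high dose at 24 h), -0.016 to 0.70 (TXNIP, low dose at 72 h), -1.32 to -0.47 and -1.09 to -0.24 (ARRDC2 at 24 h, high dose and high against low), 0.33 to 1.18 (ARRDC2, dose difference over time), -0.70 to -0.52 (ARRDC3, high against low at 24 h), -0.18 to 0.20 (ARRDC3, low dose at 72 h), -0.92 to -0.53 (ARRDC3, low dose over time), 0.70 to 1.23 and -0.0052 to 0.27 (ARRDC4, low dose at 24 h and 72 h) and -0.35 to 0.37 (ARRDC4, dose difference over time).

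The replicate block changed no call of a member in either compound; with it the genes called rose from 2753 to 4323 (low dose of Aa at 24 h), 2970 to 4553 (high against low), 3339 to 5014 and 668 to 1983 (high and low dose over time), 409 to 1822 (dose difference over time) and 142 to 1792 (controls over time). In Ota the numbers are not shown to pair the cultures as a whole, and with the block ARRDC4 with the low dose at 24 h had an adjusted p of 0.0920. Shifted arrays gave 260 for the Aa dose difference over time.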
